A study of Mus musculus with 4 samples.

Results

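The genes described here encode the translation initiation factors (symbols Eif1 to Eif6) and the translation elongation factors (symbols Eef). They were taken from the count files by symbol, and the kinases of eIF2 were left out. The rule took 64 of the 23420 rows, and 60 of the 64 passed the filter on low counts. Of the 64 symbols, 4 are older names of the Argonaute genes Ago1 to Ago4 (Eif2c1 to Eif2c4), which serve RNA interference and are not translation factors. They are given apart, which leaves 60 translation factor genes, 56 of them tested. The cells were a large pre-B cell line of the mouse that is Irf4/8-/- (lacking both transcription factors) in either group, grown with interleukin 7 on an OP9 stromal layer. One group had received a retrovirus with a hairpin against Myb (shMyb) and the other a retrovirus with a hairpin against luciferase (shLuc), each with a GFP reporter, and GFP+ cells were sorted 72 hours later. There were 2 libraries per group, from duplicate sets of 12 wells of 1 transduced line, so the p-values measure the spread between those sets only.

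Translation starts when eIF2 brings the initiator tRNA to the small ribosomal subunit together with eIF1, eIF1A, eIF3 and eIF5. The cap-binding complex eIF4F, made of eIF4E, the helicase eIF4A and the scaffold eIF4G, loads this assembly onto the mRNA, and eIF5B joins the large subunit. eEF1A then delivers each aminoacyl-tRNA, the eEF1B complex recharges eEF1A with GTP, and eEF2 moves the ribosome along. Growing lymphoid cells make these factors in large amounts, and many of the genes are known targets of MYC and of mTOR signalling.

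The libraries held 36573743 to 44682954 counts each. Levels are given as CPM, counts per 1000000 of the library size after TMM scaling between libraries. A gene with a count of 0 could reach 3 counts, or 0.0689 to 0.0799 CPM by library, from counting error alone. Myb was at 616 and 600.2 CPM with shLuc, against 617 and 639 CPM with shMyb (log2 fold change 0.05, edgeR adjusted p = 0.283), so its transcript was not lower with shMyb, and directions below compare the libraries labelled shMyb and shLuc. All 8 B lineage markers had counts in every library, at a summed 4610.3 to 4712 CPM, and 4 were called higher and 3 lower. The summed level of 8 stromal markers was 34.8 to 46.3 CPM in shLuc and 42.8 to 49.5 CPM in shMyb. Of these 1 was called higher and 1 lower. The 6 myeloid markers summed to 2.96 to 3.43 CPM in shLuc and 5.70 to 6.63 CPM in shMyb, with Elane at 0. Of these 3 were called higher and none lower, while Csf1r went from 1.18 and 1.26 CPM to 1.03 and 0.83 CPM. T cell and erythroid markers summed to at most 0.0751 CPM, with Cd4, Cd8a and Hba-a1 at 0. The 3 plasma cell markers summed to 35.8 to 38.7 CPM and 29.0 to 29.1 CPM, and all 3 were called lower. These marker calls stand beside 30.6% called higher and 31.7% called lower over all tested genes. The part of other cells in the results was not tested. In bulk RNA, fewer cells of a type and less RNA per cell cannot be told apart.

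Most translation factor genes were lower in shMyb, each by a modest amount. Of the 56 tested, 44 were called lower and 5 higher, and 7 were not called, at an edgeR adjusted p below 0.05. The median log2 fold change was -0.21, a level 0.864 times that of shLuc, and single values ran from -0.58 (Eif1a) to 0.31 (Eif4g3). Over all 12610 tested genes 62.2% were called in either direction, 31.7% lower and 30.6% higher, with a median log2 fold change of 0.00. Among the factor genes 78.6% were lower and 8.93% higher. Translation factor genes are abundant, and of the 2560 genes averaging 100 CPM or more 73.0% were called, 47.5% lower and 25.5% higher, with a median of -0.07. Of the 42 factor genes at or above that level 33 were lower and 4 higher, and of the 14 below it 11 were lower and 1 was higher. With library totals in place of TMM, 38 factor genes were lower and 5 higher, against 24.6% and 37.0% of all tested genes. With the trend over GC content and length removed 43 were lower and 4 higher, against 36.3% and 26.2%. Neither group's values overlapped the other's for 49 of the 56, or 87.5%, against 82.1% of all tested genes and 88.9% of those at or above 100 CPM, so that share was close to that of other abundant genes. Initiation factor genes took 1.49% and 1.51% of all counts in shLuc and 1.39% and 1.37% in shMyb. For elongation factor genes the shares were 1.85% and 1.92% against 1.78% and 1.69%.

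**Figure D1:**
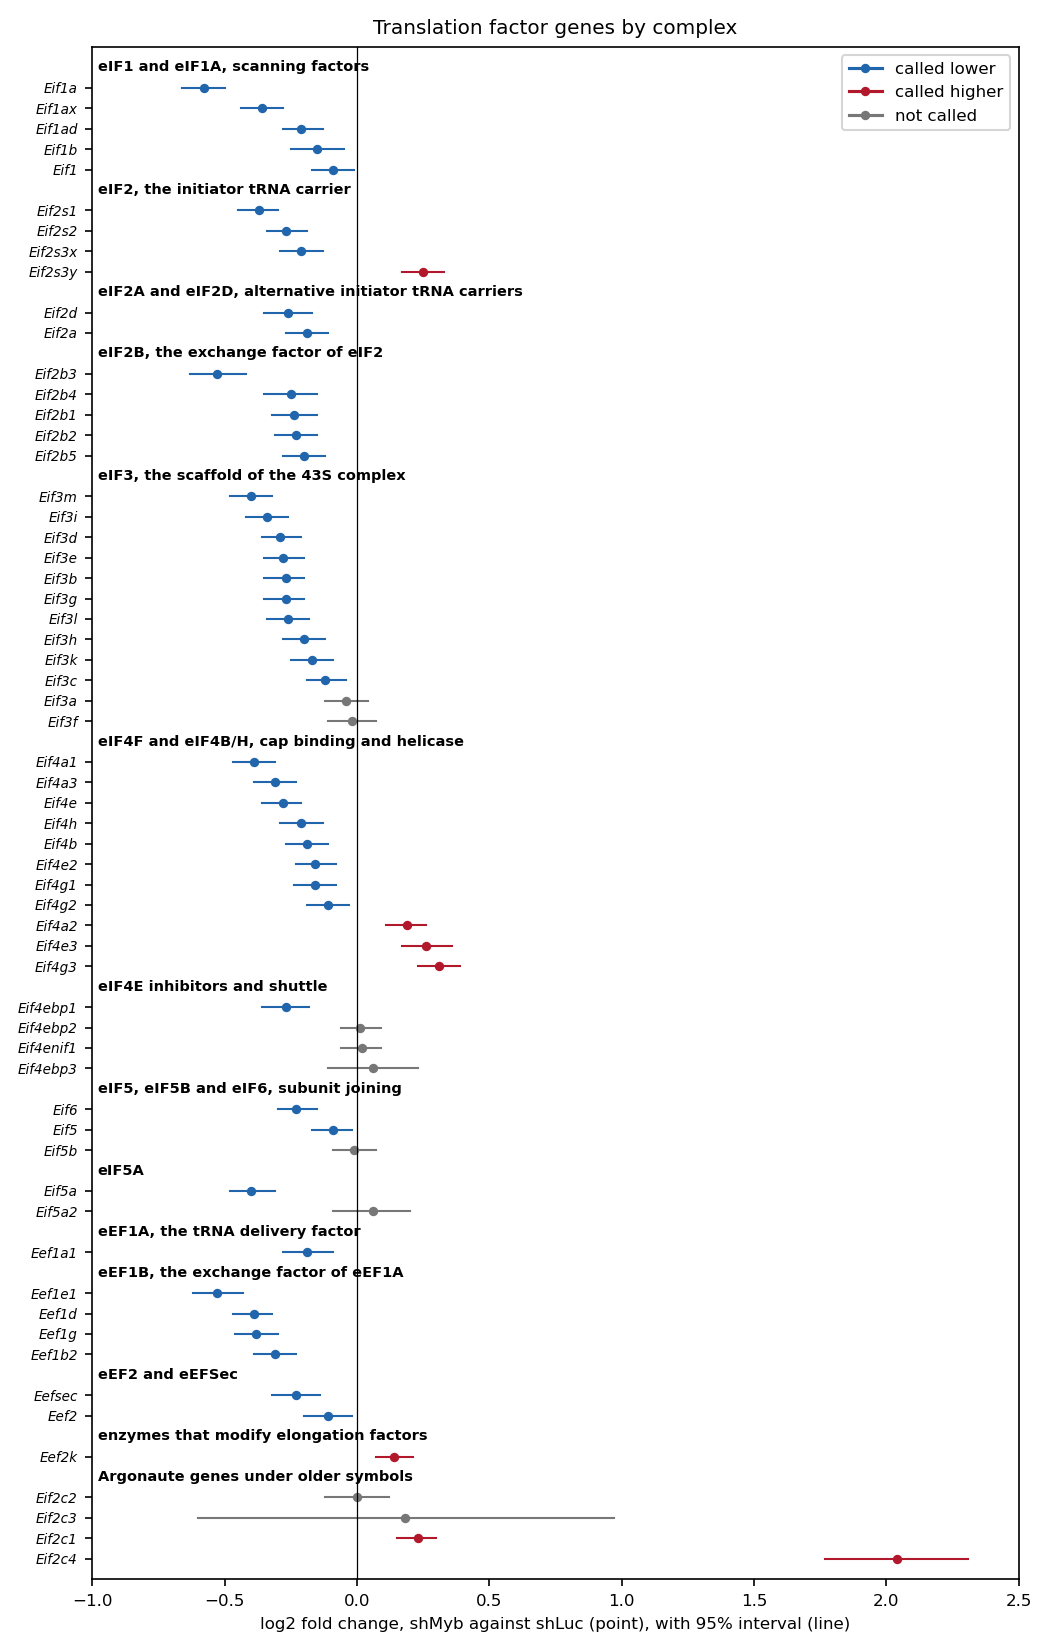
Log2 fold change of each tested gene in shMyb against shLuc (horizontal axis, log2 scale), grouped by complex, where points are edgeR estimates, lines are 95% intervals and colours give the call. Most points lie between -0.58 and -0.09, and the few to the right of 0 that were called include Eif4g3, Eif4e3, Eif4a2, Eif2s3y and Eef2k.

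All 5 genes with symbols starting Eif1 were called lower (median -0.21), beside 31.7% of all tested genes. They are genes of eIF1 and eIF1A, factors that prepare the small subunit for scanning, and the related Eif1ad. The calls of Eif1 and Eif1b did not hold under several alternatives. Eif1a and Eif1ax encode near-identical forms of eIF1A, which stabilises the scanning ribosome, and reads that both genes share may be split or dropped. Eif1a (chr18:46597701-46616456) had 134 and 140.4 CPM with shLuc, against 91.8 and 91.7 CPM with shMyb. Both shMyb libraries were lower than both shLuc libraries, by a log2 fold change of -0.58 (SE 0.038, adjusted p = 2.33e-12). This was the largest fall among the translation factor genes. X-linked Eif1ax went from 152 and 154 CPM to 121 and 117 CPM (-0.36, SE 0.037). Eif1ad, which encodes an eIF1A-domain protein, was at -0.21. Eif1, which guards the choice of the start codon, had 326 and 342 CPM with shLuc, against 323 and 304 CPM with shMyb (-0.09, adjusted p = 0.0425). The Eif1 groups nearly touched, and its call ended when shLuc replicate 2 was left out (-0.07, adjusted p = 0.246) and when shMyb replicate 2 was (-0.05, 0.376). The Eif1 call was lost under 11 of 16 alternatives, among them DESeq2 (adjusted p = 0.0828), limma-voom (0.0512), robust=FALSE (0.059) and library totals (-0.03, 0.485). Eif1b was at -0.15, and its call ended without shMyb replicate 2 (-0.12, 0.0713), with DESeq2 (adjusted p = 0.0898) and with library totals (-0.09, 0.108).

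The genes of eIF2, which carries the initiator tRNA, moved in both directions. Eif2s1, the alpha subunit that stress kinases phosphorylate, fell from 238 and 240.3 CPM to 186 and 183 CPM (-0.37, SE 0.036, adjusted p = 2.3e-09). Eif2s2, the beta subunit, had 235 and 235 CPM with shLuc, against 198 and 193 CPM with shMyb (-0.27). The gamma subunit, which binds the tRNA, has an X-linked and a Y-linked gene in the mouse, and these moved apart. Eif2s3x (chrX:94188707-94212862) had 85.9 and 84.3 CPM with shLuc, against 73.8 and 73.1 CPM with shMyb (-0.21, adjusted p = 4.74e-05). Eif2s3y (chrY:1010543-1028847) had 102 and 107 CPM with shLuc, against 122 and 127 CPM with shMyb (0.25, adjusted p = 4.78e-06). Both shMyb libraries were thus lower for the X copy and higher for the Y copy. Eif2a and Eif2d, which encode other carriers of initiator tRNA, were lower too. Eif2a went from 180.2 and 184 CPM to 164 and 156 CPM (-0.19), and Eif2d from 62.9 and 63.4 CPM to 51.5 and 54.0 CPM (-0.26).

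All 5 subunit genes of eIF2B, the factor that recharges eIF2 with GTP, were called lower (median -0.24), beside 31.7% of all tested genes. Eif2b3, the gamma subunit of its catalytic part, had 38.6 and 39.3 CPM with shLuc, against 27.1 and 27.0 CPM with shMyb (-0.53, SE 0.051, adjusted p = 2.38e-09). The other 4 lay close together, from -0.25 (Eif2b4) to -0.20 (Eif2b5). Eif2b5, the catalytic epsilon subunit, had 134 and 135 CPM with shLuc, against 121 and 113 CPM with shMyb. The 95% interval of Eif2b3, -0.63 to -0.42, lay below those of Eif2b1 (-0.32 to -0.15), Eif2b2 (-0.31 to -0.15), Eif2b4 (-0.35 to -0.15) and Eif2b5 (-0.28 to -0.12), although the difference itself was not tested.

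Of 14 genes of eIF3, the large scaffold that holds the preinitiation complex together, 12 were tested. Of these 10 were lower and none higher (median -0.26), beside 31.7% lower over all tested genes and 47.5% of those averaging 100 CPM or more. In order of size the 10 ran from Eif3m (-0.40), Eif3i (-0.34), Eif3d (-0.29) and Eif3e (-0.28) through Eif3b and Eif3g (-0.27 each), Eif3l (-0.26) and Eif3h (-0.20) to Eif3k (-0.17) and Eif3c (-0.12). Eif3m, a ring subunit, had 241 and 258 CPM with shLuc, against 195 and 183 CPM with shMyb (adjusted p = 1.27e-08). Eif3i, a subunit of the peripheral part, went from 197 and 203 CPM to 162 and 153 CPM. Eif3a, the subunit around which eIF3 assembles, had 799 and 792 CPM with shLuc, against 756 and 794 CPM with shMyb, and its groups overlapped. Its 95% interval of -0.12 to 0.04 held no fall of the size seen for Eif3m. Eif3f was likewise not called, with an interval of -0.11 to 0.07. The Eif3c call ended when shLuc replicate 2 was left out (-0.10, adjusted p = 0.0746) and when shMyb replicate 2 was (-0.10, 0.0555). Eif3j1 had 0 counts in all 4 libraries and Eif3j2 had 2, 0, 0 and 2. Those symbols belong to near-identical copies whose shared reads may be split or dropped in counting, so their level is uncertain.

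Within the cap-binding group the main forms fell and 3 of their paralogs rose. Of 12 genes 11 were tested, and 8 (72.7%) were lower and 3 (27.3%) higher. Over all tested genes 31.7% were lower and 30.6% higher, so the share higher was near that of all tested genes. Eif4a1 (chr11:69666936-69672423) encodes the major helicase of eIF4F. It had 1028 and 1069 CPM with shLuc, against 811 and 785 CPM with shMyb (-0.39, SE 0.038, adjusted p = 3.14e-09). Its close relative Eif4a2 (chr16:23107444-23114136) went the other way, from 387 and 369.7 CPM to 427 and 436 CPM (0.19, SE 0.037, adjusted p = 1.01e-04). The scaffold genes split in the same manner. Eif4g1 (chr16:20668313-20692884) had 824 and 824 CPM with shLuc, against 740.2 and 735 CPM with shMyb (-0.16, adjusted p = 5.16e-04). With the trend over expression level removed Eif4g1 was at -0.02 and not called. Eif4g3 (chr4:137993022-138208508) had 229.6 and 219 CPM with shLuc, against 267 and 288 CPM with shMyb (0.31, SE 0.04, adjusted p = 5.49e-07). For the cap-binding subunit, Eif4e (chr3:138526179-138559696) went from 155 and 156 CPM to 127 and 129 CPM (-0.28, adjusted p = 3.32e-07). Its divergent relative Eif4e3 (chr6:99625135-99666771) went from 40.5 and 42.8 CPM to 50.3 and 49.6 CPM (0.26, adjusted p = 2.84e-05). No group overlapped the other in any of these 6 genes. The same held for 82.1% of all tested genes and 88.9% of those at or above 100 CPM.

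**Figure D2:**
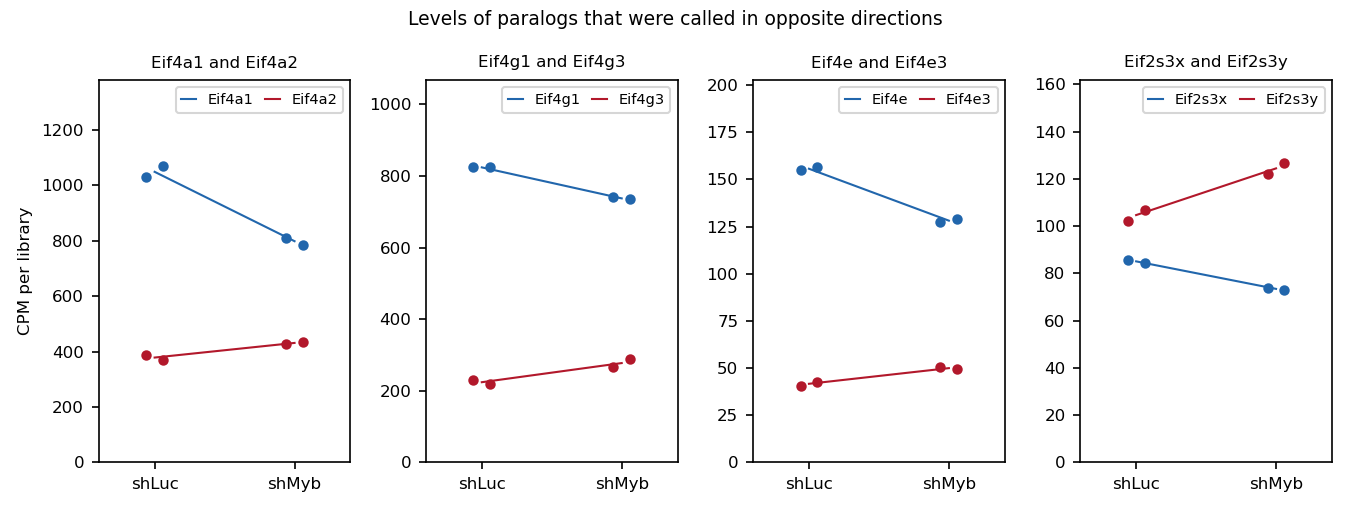
CPM in each library (vertical axis, from 0) for 4 pairs of paralogs in shLuc and shMyb, where points are the 2 libraries of a group and lines join the group means. In each pair the blue gene is lower and the red gene higher in shMyb, for example Eif4a1 from 1048 to 798 CPM and Eif4a2 from 378 to 431 CPM.

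The ratio of paralogs within a library does not depend on how libraries are scaled. Of 11 pairs 9 had enough counts in both genes. Counts of Eif4a2 made up 27.4% and 25.7% of the Eif4a1 and Eif4a2 counts in shLuc and 34.5% and 35.7% in shMyb. The log2 ratio rose by 0.58, a 1.5-fold change. For Eif4g3 against Eif4g1 the share went from 21.8% and 21.0% to 26.5% and 28.1% (1.38-fold), for Eif4e3 against Eif4e from 20.7% and 21.5% to 28.3% and 27.8% (1.46-fold), and for Eif2s3y against Eif2s3x from 54.4% and 55.9% to 62.3% and 63.4% (1.38-fold). The shift was smaller for Eif4e2, which encodes the repressive cap-binding protein 4EHP, against Eif4e (1.09-fold). It was 1.16-fold for Eif1ax against Eif1a, both of which fell. Eif1b against Eif1 differed by less than the spread within shLuc (log2 difference -0.06, SD 0.083, n = 2). For 8 of the 9 pairs the groups did not overlap, at an exact two-sided permutation p of 0.333, the smallest that 2 against 2 libraries allow (Benjamini-Hochberg adjusted p = 0.375 over 9 pairs). Per kilobase of exon, Eif4a2 stood at 0.281 to 0.306 times the level of Eif4a1 in shLuc and at 0.427 to 0.450 times in shMyb. Exons of Eif4a2 hold several small nucleolar RNA genes and overlap Rfc4 on the opposite strand. Exons of Eif4a1 (Gm22988 and Gm24029), Eif4g1 (Snord66), Eif4e (Mir1956) and Eif4e3 (Gm20696) also overlap genes on the same strand. The Eif4a1 and Eif4a2 sequences are alike, so shared reads may be split or dropped.

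Promoters are shown for the 3 pairs of paralogs that moved apart and have both genes in the RefSeq table, because promoters are regions where such genes can differ in control. Eif4e3 had no entry. Each line gives the 250 bases before the RefSeq start (GRCm38.p6), 5′ to 3′ on the strand of the gene. Capitals mark CACGTG, the E-box that MYC and other factors bind, and TTCCG or its complement CGGAA, the core of ETS family sites. The stretches are chr11:69672424-69672673 (minus strand), chr16:23107218-23107467 (plus), chr16:20672477-20672726 (plus), chr4:137993205-137993454 (plus), chrX:94212652-94212901 (minus) and chrY:1010345-1010594 (plus).
Eif4a1: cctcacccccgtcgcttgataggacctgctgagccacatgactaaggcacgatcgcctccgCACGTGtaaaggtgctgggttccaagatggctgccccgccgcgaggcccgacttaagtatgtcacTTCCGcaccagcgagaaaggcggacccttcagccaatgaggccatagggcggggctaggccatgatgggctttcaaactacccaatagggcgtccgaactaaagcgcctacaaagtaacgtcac
Eif4a2: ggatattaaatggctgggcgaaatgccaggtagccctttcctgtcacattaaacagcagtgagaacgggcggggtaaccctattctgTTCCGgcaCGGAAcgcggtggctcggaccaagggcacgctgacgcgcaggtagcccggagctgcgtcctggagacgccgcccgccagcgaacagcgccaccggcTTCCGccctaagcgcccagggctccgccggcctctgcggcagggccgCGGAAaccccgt
Eif4g1: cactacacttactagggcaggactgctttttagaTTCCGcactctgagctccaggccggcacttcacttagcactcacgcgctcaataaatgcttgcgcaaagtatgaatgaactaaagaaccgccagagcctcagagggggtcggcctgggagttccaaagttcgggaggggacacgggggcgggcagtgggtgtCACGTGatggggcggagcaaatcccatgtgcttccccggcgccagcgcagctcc
Eif4g3: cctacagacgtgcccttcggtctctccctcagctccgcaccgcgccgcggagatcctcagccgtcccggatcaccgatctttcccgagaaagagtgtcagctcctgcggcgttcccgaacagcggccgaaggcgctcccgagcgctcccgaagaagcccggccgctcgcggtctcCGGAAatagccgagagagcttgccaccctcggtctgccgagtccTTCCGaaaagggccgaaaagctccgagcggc
Eif2s3x: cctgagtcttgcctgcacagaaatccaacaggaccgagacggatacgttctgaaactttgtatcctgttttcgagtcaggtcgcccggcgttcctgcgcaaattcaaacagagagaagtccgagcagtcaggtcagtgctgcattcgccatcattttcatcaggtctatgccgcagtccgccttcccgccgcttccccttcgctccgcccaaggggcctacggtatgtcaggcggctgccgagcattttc
Eif2s3y: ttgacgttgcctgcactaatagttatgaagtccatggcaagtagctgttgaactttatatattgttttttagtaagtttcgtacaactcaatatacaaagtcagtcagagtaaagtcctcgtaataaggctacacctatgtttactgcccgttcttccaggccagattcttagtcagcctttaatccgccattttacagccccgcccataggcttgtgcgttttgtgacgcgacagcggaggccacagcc
The Eif4a1 and Eif4g1 stretches, from the genes that fell, each hold 1 CACGTG and 1 TTCCG. The Eif4a2 and Eif4g3 stretches, from the genes that rose, hold 0 CACGTG, with 4 and 2 matches to TTCCG. The Eif4g3 stretch is the first of 2 windows in the table. The Eif4g1 and Eif4g3 stretches lie inside the gene spans given above, and those of Eif4a2, Eif2s3x and Eif2s3y overlap theirs in part. The start in use in these cells was not tested. The Eif2s3x and Eif2s3y stretches hold neither motif. The Eif4e window, not printed, holds CACGTG at -228 and -64 from the start. A match is a description of letters and not of binding.

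Over windows of 250 bases before to 50 after the start, 46 of the 60 translation factor genes had an entry in the RefSeq table. CACGTG was present for 12 of them (26.1%), against 11.8% of 9822 tested genes and 8.09% of all 27025 genes of the table. It was present for 8 of 34 genes called lower (23.5%) and for 1 of 4 called higher, which was Eef2k. The 12 also included Eif3a, Eif3f and Eif5a2, which were not called. TTCCG on either strand was found for 69.6% of the factor genes and 54.9% of tested genes. AACNG, the core of MYB sites, was found on either strand for 80.4% and 81.1%, and this short motif occurs in most windows.

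The remaining genes of the cap-binding group were lower. Eif4g2, which encodes a shortened eIF4G relative that cannot bind eIF4E, had the highest CPM of the group. It had 1671 and 1689 CPM with shLuc, against 1602 and 1514 CPM with shMyb (-0.11, adjusted p = 0.02). Its call ended when shLuc replicate 2 was left out (-0.11, adjusted p = 0.0805) and when shMyb replicate 2 was (-0.07, 0.24). The helicase cofactor genes Eif4b and Eif4h were at -0.19 and -0.21. Eif4a3, which serves the exon junction complex rather than initiation, was at -0.31, and Eif4e2 at -0.16. Eif4e1b had 0 counts in every library.

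Of the 4 genes that restrain or shuttle eIF4E, Eif4ebp1 was called lower and the other 3 were not called. That was 25.0% lower, against 31.7% of all tested genes. Eif4ebp1, the binding protein that mTOR phosphorylates to free eIF4E, had 58.1 and 60.1 CPM with shLuc, against 48.2 and 49.8 CPM with shMyb (-0.27, adjusted p = 8.92e-06). Eif4ebp2 had 137 and 136 CPM with shLuc, against 139 and 136 CPM with shMyb, with a 95% interval of -0.06 to 0.09. Eif4enif1, whose product carries eIF4E into the nucleus, had 141 and 139.7 CPM with shLuc, against 141 and 144 CPM with shMyb, also with an interval of -0.06 to 0.09. Eif4ebp3 was at 10.5 to 11.5 CPM in all libraries (-0.11 to 0.23).

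Of the 3 genes for subunit joining 2 were lower and none higher, and Eif5a fell. Of all tested genes 31.7% were lower, as were 47.5% of those averaging 100 CPM or more. Eif5, the GTPase activator of eIF2, had 449 and 456 CPM with shLuc, against 426 and 423 CPM with shMyb (-0.09, adjusted p = 0.0292). Its call ended on leaving out shLuc replicate 2 (-0.09, 0.113), shMyb replicate 1 (-0.10, 0.0528) or shMyb replicate 2 (-0.09, 0.101). Eif5b was at 237 and 234 CPM against 224 and 244 CPM, and its interval was -0.09 to 0.07. Eif6, which keeps free large subunits apart, went from 119 and 122 CPM to 103 and 103 CPM (-0.23). Eif5a (chr11:69916714-69921958) encodes the hypusine-bearing factor that helps ribosomes through difficult peptide bonds. It had 1229.6 and 1282 CPM with shLuc, against 973 and 937 CPM with shMyb (-0.40, SE 0.039, adjusted p = 3.92e-09). Its paralog Eif5a2 stayed at 15.4 to 17.0 CPM and was not called (interval -0.09 to 0.20). Its share of the pair rose from 1.24% and 1.26% to 1.72% and 1.68%.

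The 3 subunit genes of the exchange complex eEF1B and the related Eef1e1 were all called lower (median of the 4 genes -0.38). The share lower over all tested genes was 31.7%. Eef1e1, which encodes a protein of the aminoacyl-tRNA synthetase complex with an eEF1B-like domain, had 53.9 and 54.4 CPM with shLuc, against 36.7 and 38.4 CPM with shMyb (-0.53, SE 0.046, adjusted p = 4.08e-10). Eef1g, the gamma subunit, went from 899 and 938 CPM to 725 and 691 CPM (-0.38), and Eef1d, the delta subunit with exchange activity, from 234 and 242 CPM to 184 and 179 CPM (-0.39). Eef1b2, the beta exchange subunit, was at -0.31. An exon of Eef1b2 overlaps Ndufs1 on the opposite strand.

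Eef1a1, the tRNA carrier itself, was the most abundant of these transcripts, with 11325 and 11848 CPM with shLuc, against 10519 and 9851 CPM with shMyb. The groups did not overlap and the log2 fold change was -0.19 (SE 0.046, adjusted p = 0.00116), but with the trend over expression level removed it turned to 0.13. Per kilobase of exon it stood at 4648 CPM in shLuc, against 1613 for Eef2, 353 for Eef1g, 333 for Eef1b2 and 36.7 for Eef1d. These figures depend on the length of all annotated exons, 6488 bases for Eef1d against 2600 for Eef1g and 2532 for Eef1b2. Eef1a2, the muscle and neuron form, had 1 count in 1 shMyb library and 0 in the other 3. Eef2, the translocase, had 5245 and 5478 CPM with shLuc, against 5117 and 4807 CPM with shMyb (-0.11, adjusted p = 0.0291). That call ended when shLuc replicate 2 was left out (-0.09, 0.226) and when shMyb replicate 2 was (-0.07, 0.299), and Eef2 turned to 0.16 with the level trend removed. Eefsec, the selenocysteine factor, went from 53.5 and 51.8 CPM to 44.7 and 45.1 CPM (-0.23). Eef2k, the kinase that inhibits eEF2, rose from 193 and 192 CPM to 213 and 211 CPM (0.14, adjusted p = 0.00152). With the trend over GC content and length removed Eef2k was at 0.04 and no longer called.

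**Figure D3:**
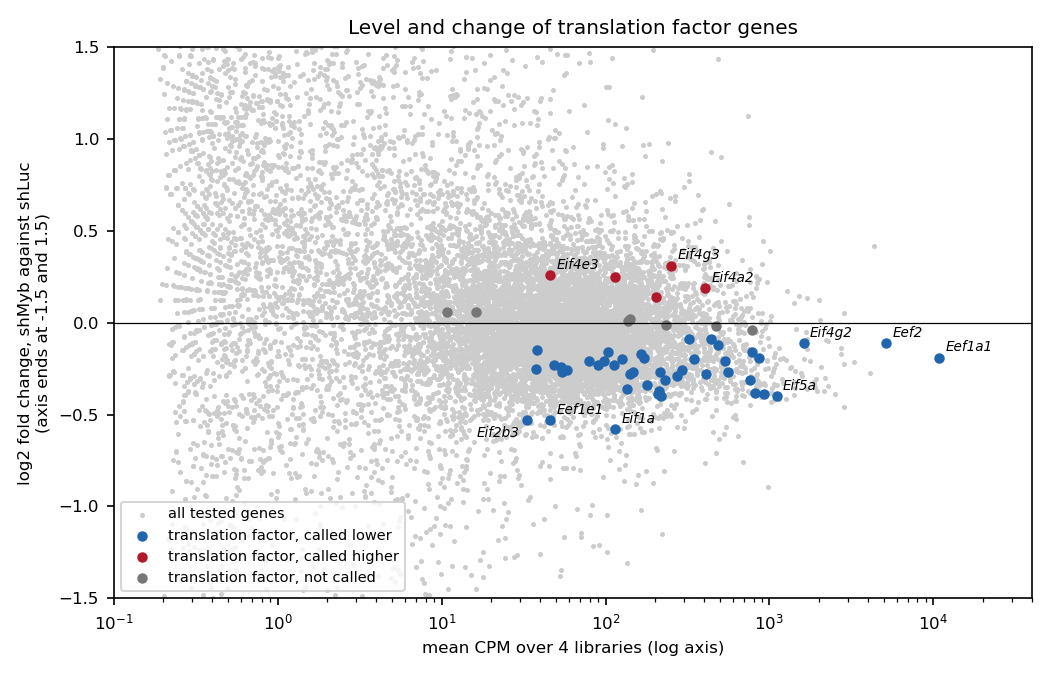
Mean CPM over the 4 libraries (horizontal log axis) against the log2 fold change of shMyb against shLuc (vertical axis, from -1.5 to 1.5), with all tested genes in grey and tested translation factor genes in colour by call. The called factor genes lie mostly below 0, at levels from 33.0 CPM (Eif2b3) to 10886 CPM (Eef1a1).

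Since fold changes were on the whole lower for abundant genes, the fit was repeated with the trend over expression level removed. Of the 56 translation factor genes 36 were then lower and 9 higher, and the median was -0.16, against 30.9% lower and 29.5% higher over all tested genes. The 3 genes with the highest mean CPM, Eef1a1, Eef2 and Eif4g2, and also Eif3a, were then called higher (0.13, 0.16, 0.08 and 0.10), and Eif4g1, Eif4b, Eif3c, Eif1 and Eif5 were not called. Eif1a (-0.53), Eif2b3 (-0.50), Eef1e1 (-0.50), Eif4a1 (-0.25) and Eif5a (-0.24) remained lower, and Eif4a2 (0.28), Eif4g3 (0.37), Eif4e3 (0.29) and Eif2s3y (0.30) higher.

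**Figure D4:**
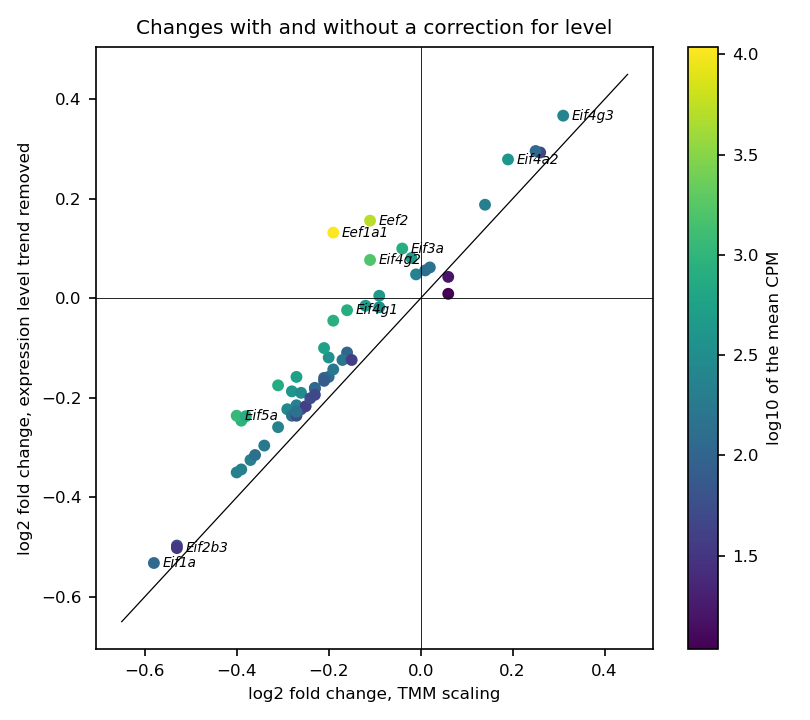
Log2 fold change of each tested translation factor gene with TMM scaling (horizontal axis) and with the expression level trend removed (vertical axis), coloured by the log10 of its mean CPM, with a line of equality. Eef1a1 (-0.19 and 0.13) and Eef2 (-0.11 and 0.16) lie farthest above the line.

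Genes that act with these factors, taken from 5 lists, gave 31 of 57 tested lower and 6 higher, beside 31.7% lower and 30.6% higher over all tested genes. With library totals 21 were lower and 10 higher. Of 8 tested genes of termination and ribosome recycling 5 were lower and none higher. They included Etf1, the release factor eRF1 (345 and 348 CPM against 272 and 272 CPM, -0.35), its partner GTPase gene Gspt1 (-0.31), and Hbs1l, a ribosome rescue GTPase gene (-0.32). Of 23 partners of the cap, the poly(A) tail and scanning 15 were lower and 4 higher. Bzw2, a regulator related to eIF5, went from 246 and 250.4 CPM to 185 and 180.3 CPM (-0.44), and Ncbp2, a subunit of the nuclear cap-binding complex, was at -0.34. Mknk1, a kinase that phosphorylates eIF4E, rose from 52.6 and 52.8 CPM to 81.3 and 83.9 CPM (0.65, SE 0.041, adjusted p = 1.13e-12). Its paralog Mknk2, named after its values were seen, fell from 505 and 524 CPM to 419 and 402 CPM (-0.33, adjusted p = 5.31e-08).

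Of 7 genes for eIF2 kinases and phosphatase subunits 2 were higher and none lower. That share of 28.6% higher was near the 30.6% of all tested genes. The 2 were Eif2ak3, the endoplasmic reticulum stress kinase PERK (89.0 and 88.7 CPM against 116 and 113 CPM, 0.36, adjusted p = 8.65e-09), and Eif2ak4, the amino acid sensor GCN2 (0.25, adjusted p = 1.58e-05). Of 9 genes that make hypusine on eIF5A or diphthamide on eEF2, 6 were lower and none higher, beside 31.7% lower over all tested genes. Dph1 was at -0.36, Dph6 (listed as Atpbd4) at -0.17 and Dohh, the second enzyme of hypusine synthesis, at -0.16. The Dph6 call ended when shLuc replicate 2 was left out (-0.14, adjusted p = 0.0527) and the Dohh call without shMyb replicate 2 (-0.13, 0.0531). Of 10 mitochondrial translation factor genes 5 were lower and none higher, beside the same 31.7% lower over all tested genes. The 5 included the elongation factor genes Gfm1 (-0.34) and Tufm (-0.32), and Mtrf1 (-0.70, from 6.06 and 6.31 CPM to 4.11 and 3.52 CPM).

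Of the 4 Argonaute genes 2 were called higher and none lower, beside 30.6% higher and 31.7% lower over all tested genes. Eif2c4 (Ago4, chr4:126489541-126533472) had 2.20 and 1.997 CPM with shLuc, against 8.91 and 8.31 CPM with shMyb, which was 4.10-fold higher (log2 fold change 2.04, SE 0.131, adjusted p = 1.35e-12). Eif2c1 (Ago1), its neighbour on chromosome 4, went from 108 and 111 CPM to 128 and 128 CPM (0.23, adjusted p = 1.01e-05). Eif2c2 (Ago2), the slicing Argonaute, had 169 and 148 CPM with shLuc, against 159 and 158 CPM with shMyb, so that the shMyb values lay between those of shLuc (interval -0.12 to 0.12). With the trend over GC content and length removed Eif2c2 was called lower (-0.14, adjusted p = 0.00373). Eif2c3 (Ago3) had 24.5 and 18.2 CPM with shLuc, against 22.2 and 26.2 CPM with shMyb (0.18, SE 0.221), and it was called higher without shLuc replicate 1 (0.39, adjusted p = 1.49e-05).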

How the data were processed

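RNA-seq libraries were analysed, 2 of the shLuc group and 2 of the shMyb group. Each deposited file gives the unnormalised counts of 1 library for 23420 gene symbols. STAR, HTSeq, FastQC and DESeq2 appear with the build mm10 in the submitters' processing notes, without versions or roles. Annotation, strand setting and filters were not given in the sources used here. Without strand, overlapping genes on opposite strands may share reads, which concerns 15 of the 64 members. Some members also overlap genes on the same strand, where reads may be split or dropped. Genes were tested with edgeR 4.0.16 (R 4.3.3), with filterByExpr at a minimum count of 10, TMM scaling, and glmQLFTest after a robust glmQLFit on group alone. P-values were adjusted by Benjamini-Hochberg over 12610 genes, and calls needed an adjusted p below 0.05. A standard error is the log2 fold change divided by the square root of F. Levels between genes were compared as CPM per kilobase of the union of GENCODE M21 exons (GRCm38). That union can exceed the length of the transcripts in use. Coordinates are from that annotation, 1-based, and promoter sequences are RefSeq's (GRCm38.p6). All 64 symbols were matched, 4 through an older symbol.

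The members and lists were chosen with earlier results of these data known. Library values were given for the most abundant and the most changed gene of each complex and for all genes called higher. They were also given for the 12 largest called changes, where paralogs were compared, and for other genes such as Eif5b and Eif2c3. From each partner list up to 3 called genes with the smallest p were named. The same-numbered libraries were not paired by the labels. Alternatives were RLE scaling, library totals, no filter, a filter of 1 CPM in 2 libraries, DESeq2 1.42.0, limma-voom (limma 3.58.1), robust=FALSE, omission of each library in turn, a replicate block, a stricter adjusted p of 0.01, and loess offsets (span 0.3) over expression level or over GC content and length. The test was checked on simulated counts, in which far fewer genes were changed than were called here.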

Additional observations from a re-analysis of the deposited data

How the results depend on the processing

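Counts of factor genes called lower, Argonaute genes included, were 44 with TMM and 36 to 44 under the 16 alternatives. Those called higher were 7, and 6 to 8 under all alternatives but 1. With the expression level trend removed 11 were higher, where Eef1a1 (0.132), Eef2 (0.156), Eif3a (0.1), Eif4g2 (0.077) and Eif5 (0.005) changed sign. With the GC content and length trend removed Eif4ebp2 (-0.097) and Eif2c2 (-0.136) changed sign and were called lower. The cause was not tested. With library totals the partner genes called higher went from 6 to 10 and those called lower from 31 to 21. Leaving out 1 library gave 38 to 44 factor genes lower and 7 to 8 higher.

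Differences between replicates 1 and 2 correlated at -0.195 between the groups over 12610 genes. With 1 difference per group this cannot decide whether same-numbered samples were paired. The replicate block left 39 factor genes lower and 7 higher, and ended the calls of Eef2, Eif1, Eif5, Eif4g2 and Eif3c. The crossed pairing, chosen after seeing the data, gave 44 and 8. With 2 libraries per group, changes as small as that of Eif1 (-0.09) lay at the limit of what was called.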
